A study of Mus musculus with 12 samples.

Results

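The 10 Notch pathway genes described here are the ligand genes Jag1, Jag2 and Dll4, the receptor genes Notch1, Notch2, Notch3 and Notch4, the nuclear effector gene Rbpj and the target genes Hes1 and Hey1. They were taken by name, and all 10 were found among the 20143 genes of the deposited table. The livers came from 6 KO mice, labelled Hsd17b13-KO, and 6 WT mice, labelled Wildtype. Both groups were 8 to 10 weeks old when they went onto CDAA-HFD, a high-fat diet without choline that leaves the liver fatty and scarred, and both ate it for 12 weeks, so no liver on another diet stands beside them. The labels name no strain, sex, litter or position of the deletion, and each mouse gave 1 RNA sequencing library of whole liver. The comparison asks which transcripts differ in these steatohepatitic livers when Hsd17b13, a lipid droplet enzyme of hepatocytes, is missing.

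Notch signalling passes between touching cells. A ligand of the Jagged or Delta-like family on one cell binds a Notch receptor on the next, the receptor is cut by an ADAM protease and then by gamma-secretase, and its freed intracellular part enters the nucleus and joins the DNA-binding protein RBPJ to switch on repressor genes of the Hes and Hey families. In the liver, JAG1 and NOTCH2 are best known for building the bile ducts, and loss of either in people causes Alagille syndrome. DLL4, NOTCH1 and NOTCH4 act in vessels, and NOTCH3 is the receptor of pericytes and smooth muscle. In injured liver the pathway is also known from the ductular reaction and from work on fibrosis in mice.

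Values are CPM, in which every library adds up to 1000000, and are given as mean ± SD of 6 mice or as the lowest, median and highest mouse. The spacing of the low values put 1 CPM at 46.3 to 77.9 counts per library (59.0 ± 11.1 in KO and 62.4 ± 9.08 in WT). An earlier analysis of these data set KO mice 1 and 3 apart from the other KO mice, so values without them are given as well. The targeted gene followed the labels in every library, with Hsd17b13 at 0.956 to 1.40 CPM in KO and 315 to 393 CPM in WT. Hepatocyte markers, as the check of the labelled tissue, were abundant, the 6 listed genes summing to 52376 to 65483 CPM in KO and 51525 to 69760 CPM in WT. The log2 differences are those of log2(CPM + 1), KO minus WT, a scale that understates changes of low genes. Each was tested with limma across the 15648 genes that averaged 1 CPM or more, with Benjamini-Hochberg adjustment over all of them. In whole liver, fewer cells of a type and less RNA per cell cannot be told apart.

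No Notch pathway gene passed the test. Of the 10 genes, 9 reached a mean of 1 CPM, Jag2 being the exception, and 0 of these 9 were called at an adjusted p under 0.05, where 0.198% of all tested genes were called. At an unadjusted p under 0.05 there were 2 of the 9, Jag1 and Notch3, both lower in KO, where 7.64% of all tested genes were lower, 3.62% were higher and 11.3% differed in either direction. Negative differences were found for 6 of the 9, against 60.8% of all tested genes, and the median difference of the 9 was -0.08, against -0.03 over all tested genes. The KO and WT ranges overlapped in all 9, and did not overlap in 1.32% of tested genes. Without KO mice 1 and 3 the tested Notch genes again gave 0 calls, while the count over all genes was 192 in place of 31.

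**Figure D1:**
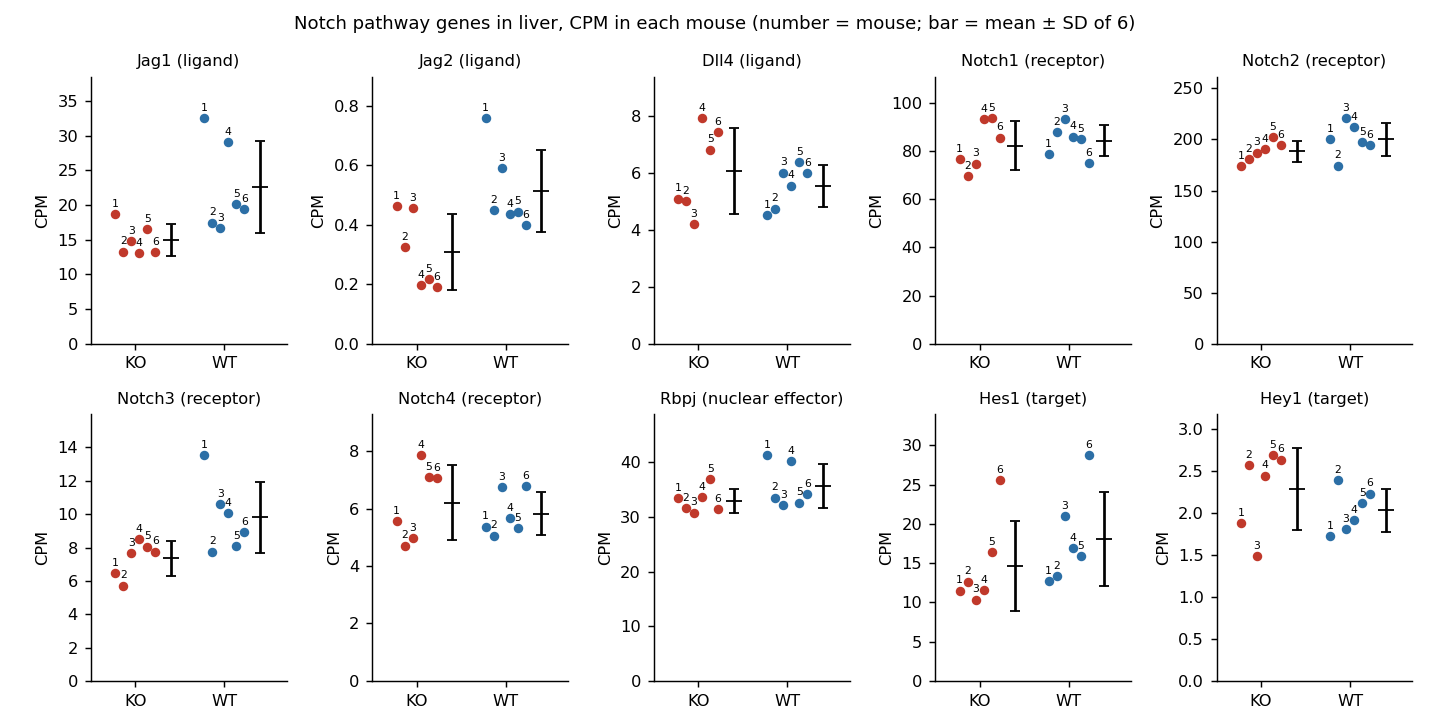
CPM (vertical axes, each starting at 0) of the 10 Notch pathway genes in each of the 6 KO livers (red, left) and 6 WT livers (blue, right), with mouse numbers above the points and the mean ± SD as black bars. Jag1 and Notch3 have their highest mice in WT, and KO mice 4, 5 and 6 stand above KO mice 1, 2 and 3 for Dll4, Notch4 and Notch1.

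Among the ligands, Jag1 had the largest difference of all 10 genes on the log2(CPM + 1) scale, while the ratio of means was lower for Jag2. Jag1 (ENSMUSG00000027276, mm10 chromosome 2, 137081456 to 137116644, minus strand) encodes the Jagged ligand of bile duct development. Its lowest, median and highest values were 13.0, 14.1 and 18.7 CPM in KO and 16.6, 19.8 and 32.6 CPM in WT. KO mice 2 to 6 lay under the whole WT range, while KO mouse 1 lay among the WT mice and WT mice 1 and 4 stood well above the other WT mice. The means were 14.9 ± 2.29 CPM in KO and 22.5 ± 6.63 CPM in WT, a ratio of 0.662. The log2 difference was -0.53 (SE 0.16, 95% interval -0.87 to -0.20, limma adjusted p = 0.146), and -0.61 without KO mice 1 and 3 (limma adjusted p = 0.113). An exact two-sided permutation test over the 924 assignments of the mice gave p = 0.00866, where 0.00216 is the smallest it can give, without adjustment for the number of genes. Markers of bile duct cells summed to 180 to 363 CPM in KO and 305 to 859 CPM in WT. Of these sums Spp1 alone gave 182 ± 58.6 CPM in KO and 384 ± 171 CPM in WT. Spp1 encodes osteopontin and is a chromosomal neighbour of Hsd17b13, and whether that bears on its level was not tested. The part of the bile duct markers in the Jag1 difference was not tested. The sequence from 250 bases before to 50 bases after the Jag1 start (RefSeq, GRCm38.p6, chr2:137116471-137116770, minus strand) is shown because Jag1 differed most on that scale. It was searched on both strands for TGGGAA, the core that RBPJ recognises, and all of it is in lower case because no match was present.
Jag1: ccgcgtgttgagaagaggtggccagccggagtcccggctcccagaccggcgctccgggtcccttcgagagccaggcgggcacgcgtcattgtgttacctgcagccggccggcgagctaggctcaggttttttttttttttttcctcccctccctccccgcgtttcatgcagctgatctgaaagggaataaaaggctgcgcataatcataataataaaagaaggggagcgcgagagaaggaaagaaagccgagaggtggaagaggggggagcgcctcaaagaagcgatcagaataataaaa

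The other ligands were lower in level. Dll4 (ENSMUSG00000027314, chromosome 2, 119325784 to 119335962), the Delta-like ligand of endothelial cells, had a lowest, median and highest value of 4.20, 5.96 and 7.94 CPM in KO and 4.52, 5.78 and 6.39 CPM in WT. KO mice 4, 5 and 6 lay above every WT mouse, and KO mice 1, 2 and 3 lay below the WT median. The log2 difference was 0.10 (SE 0.13, 95% interval -0.19 to 0.38, limma adjusted p = 0.884), and 0.25 without KO mice 1 and 3 (limma adjusted p = 0.442). Jag2 (ENSMUSG00000002799, chromosome 12, 112907819 to 112929776), a Jagged ligand related to Jag1, had 0.191, 0.270 and 0.462 CPM in KO and 0.399, 0.447 and 0.759 CPM in WT as lowest, median and highest. KO mice 2, 4, 5 and 6 lay below every WT mouse, and KO mice 1 and 3 within the WT range. Jag2 stood on as few as an estimated 10.0 counts in a library and was under the minimum for the test. Its means were 0.308 ± 0.127 CPM in KO and 0.513 ± 0.137 CPM in WT, a ratio of 0.600. In a fit of all 20143 genes its log2 difference was -0.21 (SE 0.08, 95% interval -0.37 to -0.05, limma adjusted p = 0.260), with an unadjusted limma p of 0.0148, and the exact two-sided permutation test gave p = 0.0325.

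The receptor genes Notch1 and Notch2 had differences near 0. Notch2 (ENSMUSG00000027878, chromosome 3, 98013527 to 98150361), the bile duct receptor, had 174, 189 and 203 CPM in KO and 174, 199 and 221 CPM in WT as lowest, median and highest. These ranges nearly coincided, and the log2 difference was -0.08 (SE 0.06, 95% interval -0.22 to 0.05, limma adjusted p = 0.700). Notch1 (ENSMUSG00000026923, chromosome 2, 26457903 to 26516663) had 69.7, 81.2 and 94.0 CPM in KO and 75.0, 85.6 and 93.3 CPM in WT. Its log2 difference was -0.04 (SE 0.08, 95% interval -0.21 to 0.13, limma adjusted p = 0.924), which turned to 0.02 without KO mice 1 and 3. On the scale used, the intervals of these receptors reached no further down than a ratio of 0.861 for Notch2 and 0.863 for Notch1.

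Notch3 (ENSMUSG00000038146, chromosome 17, 32120820 to 32166852), the receptor of pericytes and smooth muscle, was, beside Jag1, the other of the 9 tested genes with an unadjusted p under 0.05. It had 5.72, 7.71 and 8.49 CPM in KO and 7.76, 9.50 and 13.5 CPM in WT as lowest, median and highest. The highest KO mouse lay below the WT mean, 4 of 6 WT mice lay above every KO mouse, and WT mouse 1 was the highest of the 12. The means were 7.36 ± 1.05 CPM in KO and 9.83 ± 2.13 CPM in WT, a ratio of 0.749, with a log2 difference of -0.36 (SE 0.12, 95% interval -0.63 to -0.10, limma adjusted p = 0.226). The exact two-sided permutation test gave p = 0.0152, and without KO mice 1 and 3 the log2 difference was -0.34 (limma adjusted p = 0.335). Markers of stellate cells, pericytes and smooth muscle summed to 395 to 512 CPM in KO and 454 to 553 CPM in WT. Reln was the largest part of these sums, at 229 ± 27.8 CPM in KO and 224 ± 18.6 CPM in WT. The part of these markers in the Notch3 difference was not tested. Its RefSeq start window (GRCm38.p6, chr17:32166841-32167140, minus strand) is shown because Notch3 differed most among the receptors, and it too held no TGGGAA on either strand.
Notch3: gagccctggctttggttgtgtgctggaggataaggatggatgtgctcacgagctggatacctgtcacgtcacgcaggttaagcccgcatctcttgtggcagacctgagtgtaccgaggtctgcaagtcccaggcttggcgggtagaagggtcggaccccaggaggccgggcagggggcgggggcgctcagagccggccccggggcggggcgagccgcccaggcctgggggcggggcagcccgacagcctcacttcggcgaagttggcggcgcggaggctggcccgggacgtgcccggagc

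Notch4 (ENSMUSG00000015468, chromosome 17, 34564268 to 34588503), the endothelial receptor, had 4.71, 6.31 and 7.86 CPM in KO and 5.06, 5.52 and 6.79 CPM in WT as lowest, median and highest. KO mice 4, 5 and 6 lay above every WT mouse, as they did for Dll4, and KO mice 2 and 3 below every WT mouse. The log2 difference was 0.07 (SE 0.12, 95% interval -0.19 to 0.32, limma adjusted p = 0.915), and 0.16 without KO mice 1 and 3. Exons of Notch1, Notch3 and Dll4 overlap annotated genes on the opposite strand and those of Notch2 a gene on its own strand. Whether counting used the strand is unstated, so the values of these 4 genes may include reads of their neighbours.

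Rbpj (ENSMUSG00000039191, chromosome 5, 53466152 to 53657362), the DNA-binding partner of all Notch receptors, had 30.8, 32.6 and 36.9 CPM in KO and 32.3, 33.9 and 41.3 CPM in WT as lowest, median and highest. WT mice 1 and 4, the same mice that led Jag1, were the highest. The log2 difference was -0.11 (SE 0.07, 95% interval -0.26 to 0.05, limma adjusted p = 0.679). The Rbpj gene lies on the chromosome of Hsd17b13, 50.3 Mb from it. Its pseudogene Rbpj-ps3 is 99.7% identical over 1441 bases and was listed at 7.42 CPM in KO and 8.22 CPM in WT on average, so the split of reads between them is uncertain. Of the 8 genes with a RefSeq start window (Hes1 and Hey1 had none in the table), Rbpj alone held TGGGAA, and 25.6% of 32851 windows of this length did. The Rbpj window (GRCm38.p6, chr5:53590096-53590395, plus strand) is shown with both matches in capitals. TGGGAA begins 149 bases before the RefSeq start and its reverse complement TTCCCA 65 bases before it. This window lies inside the gene span given above, so the RefSeq start used is not the first base of the annotated gene. A second, overlapping Rbpj window held the TTCCCA copy only, and a match describes letters, not binding.
Rbpj: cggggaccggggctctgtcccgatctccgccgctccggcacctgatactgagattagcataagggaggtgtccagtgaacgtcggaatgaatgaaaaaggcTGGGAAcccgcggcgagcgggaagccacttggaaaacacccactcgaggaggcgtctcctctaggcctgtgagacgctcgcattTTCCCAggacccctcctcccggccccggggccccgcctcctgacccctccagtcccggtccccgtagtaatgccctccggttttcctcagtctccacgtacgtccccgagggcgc

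The differences of the target genes had opposite signs, and neither passed. Hes1 (ENSMUSG00000022528, chromosome 16, 30064384 to 30067796), the best known direct target and a repressor, had 10.4, 12.1 and 25.6 CPM in KO and 12.7, 16.4 and 28.8 CPM in WT as lowest, median and highest. Mouse 6 was the highest of its group in both KO and WT, and 4 of 6 KO mice lay below every WT mouse. The log2 difference was -0.30 (SE 0.22, the largest SE among the 9 tested Notch genes, 95% interval -0.77 to 0.17, limma adjusted p = 0.711), and the difference was -0.13 without KO mice 1 and 3. Hey1 (ENSMUSG00000040289, chromosome 3, 8663359 to 8667256), a target in endothelial cells, had 1.49, 2.51 and 2.69 CPM in KO and 1.73, 2.02 and 2.39 CPM in WT. KO mice 2, 4, 5 and 6 lay above every WT mouse, and KO mouse 3 was the lowest of the 12. Its log2 difference was 0.10 (SE 0.11, 95% interval -0.13 to 0.34, limma adjusted p = 0.819), and 0.25 without KO mice 1 and 3 (limma adjusted p = 0.220).

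**Figure D2:**
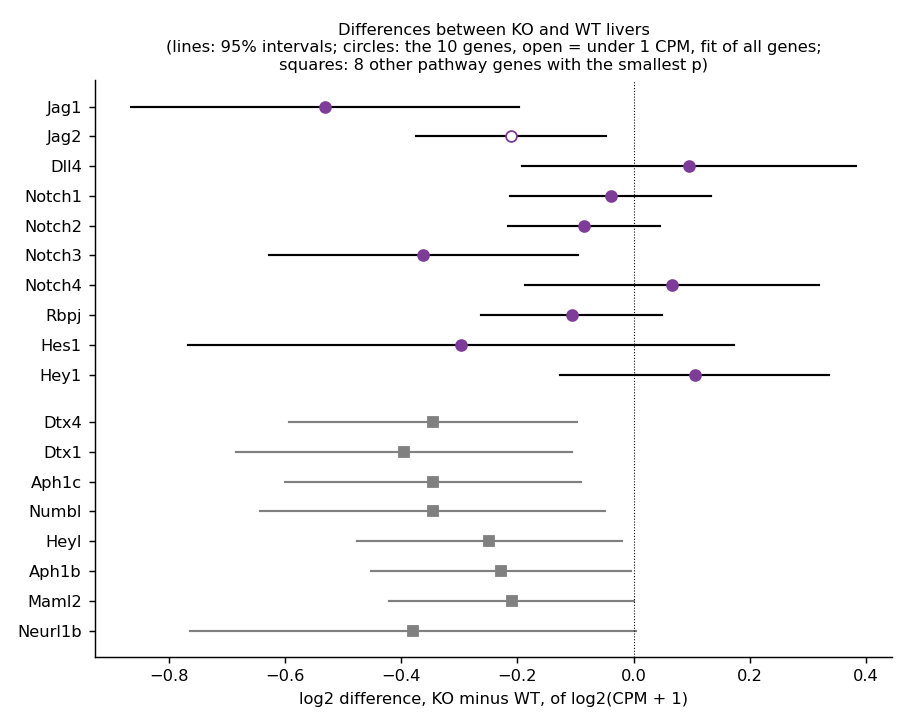
Differences in log2(CPM + 1), KO minus WT (horizontal axis), with 95% intervals for the 10 Notch pathway genes (circles) and the 8 other pathway genes with the smallest p (squares). Among the circles the intervals of Jag1, Jag2 and Notch3 lie below 0, and none of the genes plotted passed an adjusted p of 0.05.

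Compared per length, as CPM per kilobase of annotated exon, the receptor gene Notch2 had the highest level of the 10. It stood at 17.5 ± 0.940 CPM per kilobase in KO and 18.6 ± 1.50 in WT, and its lowest mouse lay above the highest mouse of any other gene. Hes1 followed with 7.21 ± 2.81 in KO and 8.88 ± 2.95 in WT, then Notch1 with 5.79 ± 0.715 in KO and 5.93 ± 0.459 in WT. The ranges of Hes1 and Notch1 overlapped, as did those of Notch1 and Jag1 and of Jag1 and Rbpj. Jag1 stood at 2.56 ± 0.393 in KO and 3.87 ± 1.14 in WT and Rbpj at 2.59 ± 0.175 in KO and 2.80 ± 0.314 in WT. All Rbpj values lay above those of Dll4. Dll4, Notch3, Notch4 and Hey1 came next, each overlapping its neighbour in this order, with means between 0.699 and 1.58 in KO and between 0.622 and 1.44 in WT. Jag2 lay apart at the bottom with 0.0442 ± 0.0182 in KO and 0.0736 ± 0.0197 in WT. As shares of the summed receptor level per length, Notch2 took 70.1% ± 2.04 in KO and 70.2% ± 1.37 in WT, and Notch3 3.64% ± 0.331 in KO and 4.59% ± 0.888 in WT. Of the summed level of Jag1, Jag2 and Dll4, Jag1 took 61.3% ± 7.50 in KO and 70.9% ± 6.80 in WT, and Dll4 37.6% ± 7.93 in KO and 27.7% ± 6.72 in WT. These shares were set up after the values were seen and were not tested. The length used joins all annotated exons of a gene, from any of its transcripts. It was 14232 bases for Notch1, 12750 for Rbpj and 2037 for Hes1. The order of the genes and the shares therefore depend on the annotation.

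**Figure D3:**
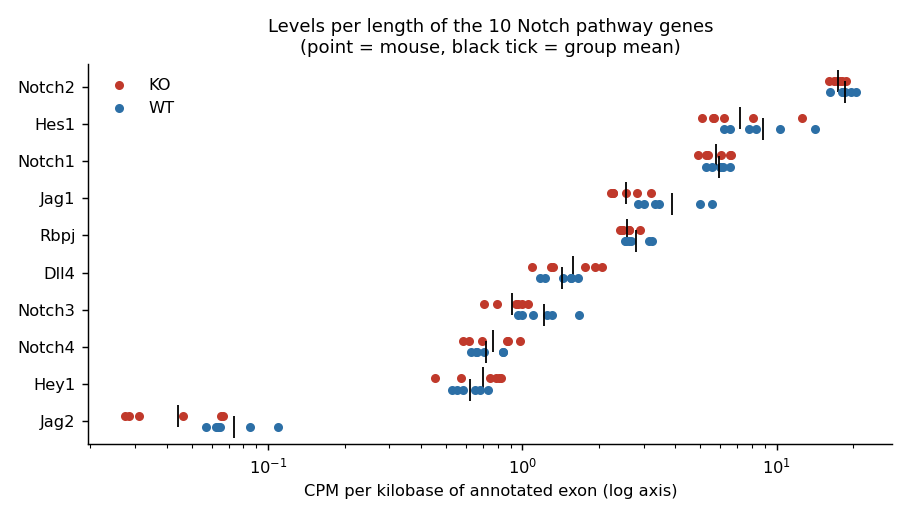
CPM per kilobase of annotated exon (horizontal log axis) of the 10 genes in each KO (red, upper row of each pair) and WT (blue, lower row) liver, with black ticks at the group means, ordered by the mean of all 12 mice. Notch2 stands above and Jag2 below all other genes, and Dll4, Notch3, Notch4 and Hey1 overlap along the order.

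Jag1 varied with the bile duct markers from mouse to mouse. Markers of cholangiocytes, the cells that line bile ducts, had negative differences for 9 of 9 tested genes (median -1.02, all 9 at an unadjusted p under 0.05), and none of the 10 listed was at 0 in every mouse. Over all tested genes 60.8% had negative differences, and 7.64% were lower at that unadjusted p. Krt7, a duct keratin, was the only one called in the limma fit, at 1.23 ± 0.538 CPM in KO and 3.61 ± 1.30 CPM in WT (adjusted p = 0.0495), a call at the edge of the threshold. It was lost without KO mouse 2, 4 or 6 and without WT mouse 1, 2, 3, 4 or 6 (limma adjusted p from 0.0622 to 0.149), and in 6 of 10 other alternatives, the replicate block included (0.0502 to 0.0967). With the group means removed, Jag1 and the mean log2 level of the 9 markers had a Pearson r of 0.95 over 12 mice (within-group permutation p = 5e-05, adjusted p = 0.0036 over 72 relations between 8 marker lists and 9 genes). Spearman's rho was 0.83 (permutation p = 0.00301, adjusted p = 0.0732). Without KO mouse 1 and WT mouse 1, the farthest in marker level, r was 0.91, and it was 0.96 within KO and 0.97 within WT. Rbpj had an r of 0.82 with the same markers (permutation p = 0.0078, adjusted p = 0.126), which did not pass. Its rho was 0.71 (permutation p = 0.0175, adjusted p = 0.166). The r of Rbpj was 0.81 without the same 2 mice, 0.50 within KO and 0.98 within WT.

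Notch4 varied with the markers of the sinusoidal endothelium, the lining of the liver's capillaries, and the relation of Dll4 did not pass. The 7 sinusoidal markers summed to 330 to 478 CPM in KO and 355 to 438 CPM in WT, with 6 of 7 differences positive, 0 called by limma (1 higher at an unadjusted p under 0.05) and none at 0. Over all tested genes 60.8% had negative differences, and 3.62% were higher at that unadjusted p. Over the 12 mice, Notch4 and these markers had an r of 0.90 (permutation p = 0.00128, adjusted p = 0.0461) and a rho of 0.83 (permutation p = 0.00463, adjusted p = 0.0833). The r was 0.89 without KO mouse 3 and WT mouse 6, 0.97 within KO and 0.66 within WT. With the list of endothelium in general Notch4 had nearly the same values, an r of 0.89 (permutation p = 0.00224, adjusted p = 0.0538) and a rho of 0.86 (permutation p = 0.00224, adjusted p = 0.0732), so the relation is not shown to be particular to sinusoidal markers. Dll4 had an r of 0.83 with the same markers (permutation p = 0.0109, adjusted p = 0.131), and a rho of 0.78 (permutation p = 0.0144, adjusted p = 0.166). This relation was 0.98 within KO and 0.36 within WT. KO mice 4, 5 and 6, which were highest for Dll4 and Notch4, were also the 3 highest livers for these markers.

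The relation of Notch3 to the markers of stellate cells, pericytes and smooth muscle did not pass either, nor did those to other lists. It used 9 of the 10 listed markers, because Cspg4 averaged under 1 CPM. Of 9 tested markers, 7 had negative differences (median -0.19), 0 were called by limma, 5 were lower and 1 higher at an unadjusted p under 0.05, and none was at 0. For this and the lists below, 60.8% of all tested genes had negative differences. At that unadjusted p 7.64% of them were lower and 3.62% higher. Notch3 had an r of 0.71 with the 9 markers (permutation p = 0.0221, adjusted p = 0.166) and a rho of 0.74 (permutation p = 0.0102, adjusted p = 0.147). The r was 0.37 without WT mice 1 and 5, 0.74 within KO and 0.72 within WT. With the arterial or large-vessel markers Notch3 had an r of 0.74 (permutation p = 0.00875, adjusted p = 0.126) and a rho of 0.81 (permutation p = 0.00305, adjusted p = 0.0732), and r was 0.50 without KO mouse 2 and WT mouse 1. With the macrophage markers its r was 0.65 (permutation p = 0.0158, adjusted p = 0.162) and its rho 0.69 (permutation p = 0.0207, adjusted p = 0.166), and r was 0.72 without KO mice 5 and 6. Of the 72 relations, the 2 that passed at an adjusted p of 0.05 were those of Jag1 and of Notch4 above, and 0 passed by rho. Of the other lists, the 8 markers of endothelium in general summed to 253 to 349 CPM in KO and 249 to 313 CPM in WT, with 8 of 8 differences positive. The 7 of arterial or large-vessel endothelium summed to 269.9 to 379 CPM in KO and 260.1 to 327 CPM in WT. Most of that sum was Cxcl12 (282 CPM in KO and 262 CPM in WT on average), and 4 of 6 tested genes had negative differences (median -0.10), with 2 lower and 0 higher at an unadjusted p under 0.05. The 8 of macrophages summed to 731 to 1075 CPM in KO and 876 to 1329 CPM in WT, with 4 of 7 tested differences negative, 3 lower and 1 higher at an unadjusted p under 0.05. The 5 of T and B cells summed to 7.15 to 9.40 CPM in KO and 5.26 to 9.51 CPM in WT, with all 5 differences positive and 1 higher at an unadjusted p under 0.05. None of these lists held a gene called by limma.

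**Figure D4:**
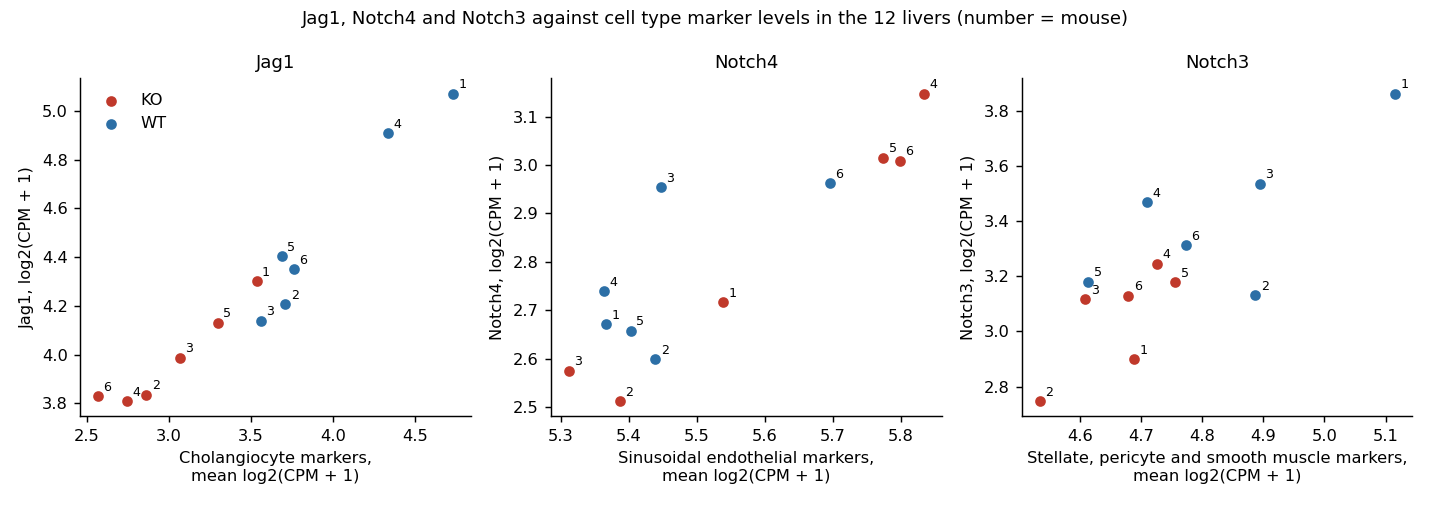
Levels of Jag1, Notch4 and Notch3 (vertical axes, log2(CPM + 1)) against the mean log2(CPM + 1) of cholangiocyte, sinusoidal endothelial and stellate, pericyte and smooth muscle markers (horizontal axes) in KO (red) and WT (blue) livers, numbered by mouse. Jag1 is higher where its markers are higher within both groups, and KO mice 4, 5 and 6 stand at the upper right for Notch4.

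Among themselves, the Notch genes gave no pair that passed. Of 36 pairs of the 9 tested genes, with group means removed, 25 had a positive r and 0 passed an adjusted p of 0.05. The pair with the smallest p was the endothelial ligand and receptor Dll4 and Notch4 (r = 0.85, permutation p = 0.00772, adjusted p = 0.175; rho = 0.72, permutation p = 0.0269, adjusted p = 0.238), with 0.77 without KO mice 3 and 4. Jag1 and Rbpj came next (r = 0.85, permutation p = 0.0097, adjusted p = 0.175; rho = 0.64, permutation p = 0.0713, adjusted p = 0.274), with 0.64 without WT mice 1 and 4. Jag1 and its bile duct receptor Notch2 were not among the pairs with an unadjusted p under 0.05.

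The genes whose deviations from the group means were most like those of each Notch gene, out of 15647 others and by Pearson's r over 12 mice, were as follows. This is a description, since the highest of many values is taken and all 12 libraries are shared. For Jag1 they were Scube3 (0.98), a secreted protein with EGF-like repeats that averaged 3.34 CPM in KO and 10.6 CPM in WT, and Cldn8 (0.97), a tight junction claudin at 0.569 CPM in KO and 1.81 CPM in WT. For Dll4 they were Stab2 (0.96), the scavenger receptor of sinusoidal endothelium, and Pdxdc1 (0.90). For Notch3 they were Arhgef40 (0.96) and Pdgfrb (0.95), the PDGF receptor of stellate cells and pericytes. For Notch4 they were Fgd5 (0.97), an endothelial exchange factor, and C130050O18Rik (0.95). For Rbpj they were the matrix protease gene Adamts9 (0.98), at 18.7 CPM in KO and 28.2 CPM in WT, and Ctnnd2 (0.97), a catenin. Notch2 was most like Vps18 (0.93) and Dop1b (0.92), Notch1 like Ss18l1 (0.92) and Pip4p1 (0.92), Hes1 like Prtn3 (0.96) and Angptl8 (0.96), and Hey1 like Gm45338 (0.89) and P2ry13 (0.89).

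The wider pathway gave no call either. Of 52 further genes of Notch signalling, 45 were in the table and 44 reached a mean of 1 CPM, Hey2 lying under it. With limma 0 were called higher and 0 lower, 0 were higher and 6 lower at an unadjusted p under 0.05, and 29 of 44 had negative differences with a median of -0.04. Over all tested genes 3.62% were higher and 7.64% lower at that unadjusted p, 60.8% had negative differences and the median was -0.03, so the share of negative differences in the list was near the background. Dtx4, a deltex ubiquitin ligase that acts on Notch, was at 34.3 ± 5.88 CPM in KO and 43.6 ± 5.79 CPM in WT (limma adjusted p = 0.213), and its relative Dtx1 at 1.43 ± 0.308 CPM in KO and 2.23 ± 0.700 CPM in WT (0.223). The lowest WT mouse had 35.8 CPM of Dtx4, above 2 of 6 KO mice, and 1.59 CPM of Dtx1, above 4 of 6.

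Of the 10 proteases, which cut ligand-bound or newly made receptors, 6 had positive and 4 negative differences. The gamma-secretase subunit genes Aph1c (5.33 ± 0.733 CPM in KO and 7.09 ± 1.45 CPM in WT, limma adjusted p = 0.226) and Aph1b (5.51 ± 0.548 CPM in KO and 6.68 ± 1.22 CPM in WT, 0.431) were the 2 with an unadjusted p under 0.05. Whether Aph1b and Aph1c share reads was not checked, so they may not be separate results. Numbl, a relative of the Notch inhibitor Numb, was at 3.39 ± 0.696 CPM in KO and 4.61 ± 1.07 CPM in WT (0.328), and Heyl, a target known from vascular smooth muscle, at 4.61 ± 0.719 CPM in KO and 5.68 ± 0.972 CPM in WT (0.383). The coactivator Maml2 was at 8.29 ± 0.745 CPM in KO and 9.83 ± 1.77 CPM in WT (0.446). Neurl1b, a ubiquitin ligase of Notch ligands, was at 9.65 ± 2.72 CPM in KO and 12.8 ± 2.98 CPM in WT (0.450). These 8 genes are the ones with the smallest p of the wider list, and in all 8 the KO and WT ranges overlapped.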

How the data were processed

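Liver RNA of 6 KO and 6 WT mice was sequenced. Per the labels' protocols, ribosomal and globin RNA was depleted and a directional kit used, while the molecule label says polyA RNA. Per the submitters' processing notes, mm10, Partek 10.0, STAR 2.7.3a and DESeq2 1.14.1 were used, with no role given for each. Nothing used here names the counting tool, annotation or strand setting. A single table in CPM was deposited by the authors, and each column sums to 1000000. Of the values between 0 and 1 CPM, 70.7% to 75.0% per library were whole multiples of a common step (tolerance 0.02 steps). That is too few to restore read counts for all genes, and the count-based tests were left out. The counts given here are estimates from that step. Symbols, positions and exon lengths come from GENCODE annotation of mm10, which named 20055 of 20143 IDs.

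The fit used log2(CPM + 1) of genes averaging 1 CPM or more, with limma 3.58.1 (R 4.3.3), KO minus WT, two-sided, its spread moderated along the mean level. The design had assumed normalized counts, and CPM needed no other test. Nothing says the mice were separately housed or bred, so p-values measure the spread between these mice. All 30 pairs of libraries of 1 genotype were distinct, with a median chi-square of 5.20 to 20.5, where noise gives 0.455. Correlations used deviations from group means and 100000 permutations within groups (SciPy 1.17.1, Python 3.11.15). Near copies were sought with BLASTN 2.17.0 (95% identity, 300 bases). The limma step was tested on simulated data.

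The 10 genes, the wider list, the markers, the tests and the alternatives were chosen with earlier results of these data known. Named genes are the 10, the 8 of the wider list with the smallest p, the 2 most alike for each tested gene, and Hsd17b13. The relations with marker lists, Krt7 and the other single marker genes named, and the shares per length were chosen after values were seen.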

Additional observations from a re-analysis of the deposited data

How the results depend on the processing

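No alternative of the 23 called a Notch gene or a wider pathway gene among those it tested (30 of the 44 wider genes where the minimum was 10 CPM), and 201 of 203 values of the tested Notch genes kept their direction. The exceptions were both Notch1, at 0.015 without KO mice 1 and 3, and, without 1 mouse each, between -0.079 and 0.0063, the upper end without KO mouse 2. Without 1 mouse, Jag1 ranged over -0.61 to -0.42 (limma adjusted p from 0.0993 to 0.337) and Notch3 over -0.42 to -0.27 (adjusted p from 0.133 to 0.482). Over the other alternatives Jag1 lay between -0.61 and -0.37, with the smallest adjusted p of 0.0935 under library weights. The count over all genes was less steady, and the cause was not tested. It was 31 (16 higher, 15 lower), 20 with a pseudocount of 10, 14 with a mean of at least 10 CPM (fewer genes tested), 76 after quantile normalization (35 higher, 41 lower), 62 with median-of-ratios scaling (24 higher, 38 lower), 212 with library weights (74 higher, 138 lower) and 192 without KO mice 1 and 3 (130 higher, 62 lower). Without 1 mouse it ran between 15 and 50, at 18, 50, 18 and 16 without KO mice 2, 3, 4 and 6 and at 20, 15, 19 and 17 without WT mice 2, 3, 4 and 6. The pairs of Notch genes that passed numbered 0 also with a pseudocount of 0.1.

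The labels do not say whether mouse numbers pair the groups, and the check made here cannot decide it, because its values were mixed. Same-numbered libraries had deviations correlated between -0.506 (number 5) and 0.419 (number 6), with 0.396 for number 1. Of the 12 libraries, 4 correlated best with their own number. With the replicate block, which treats the numbers as pairs, limma called 43 genes and no Notch gene. Jag1 was at -0.53 (SE 0.12 in place of 0.16, limma adjusted p = 0.0959). Hes1 was at -0.30 (SE 0.13 in place of 0.22, limma adjusted p = 0.409), while the SE of Notch1 was 0.083 in place of 0.081. A mean of at least 10 CPM leaves out Dll4, Notch3, Notch4 and Hey1. Jag2 stood on as few as an estimated 10.0 counts in a library, and Hes1 had the largest SE of the tested Notch genes.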
